A study of Mus musculus with 6 samples.

Results

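The stefin A genes of the mouse form a cluster on chromosome 16, and 6 of its transcripts, *Stfa1*, *Stfa2*, *Stfa3*, *Stfa2l1*, *BC100530* and *BC117090*, were followed here in BK5.ATF3 mammary tumors. They were picked by gene symbol from the 15280 genes of the expression table, and they were selected with their tumor and gland values already known. Their levels in tumor and gland are therefore given as a description, with no test. Stefins are type 1 cystatins, small cytosolic proteins that block papain-like cysteine proteases such as the cathepsins by plugging the active site with a wedge of conserved loops. Stefin A (cystatin A) is abundant in stratified squamous epithelium, where it becomes part of the cornified envelope, and several mouse stefin A genes are also known from neutrophils and other myeloid cells.

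RNA-Seq libraries were made from total RNA of 3 mammary tumors (T11035, T11640 and T9232) and of the adjacent normal mammary gland of each of the same 3 mice (M11035, M11640 and M9232). All 6 libraries came from female BK5.ATF3 mice with the ATF3 transgene, in which the bovine keratin 5 promoter drives ATF3 in basal epithelial cells, so no wild-type gland was compared. The females had raised 1 litter. Tumors arose at 6 to 12 months of age and were taken at a length of 1.5 cm, and the age of each mouse is not in the labels. The values are CPM, the fragments (read pairs) of a gene scaled by the authors to edgeR's effective library size. The libraries held 4750989 to 7806908 fragments on genes, and 3 fragments, taken as the floor, corresponded to 0.393 to 0.610 CPM. In bulk tissue, fewer cells of a type and less RNA per cell cannot be told apart.

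The glands were not alike in milk genes. The summed level of 12 mammary epithelial markers, which include the caseins, was 41283 CPM in gland M9232 and 2497 and 4862 CPM in glands M11035 and M11640. Beside the member values, those without M9232 are therefore given once below. The tumors were almost free of fat cell transcripts, with 144 to 205 CPM summed over 6 adipocyte markers against 3016 to 6110 CPM in the glands. All 6 of these adipocyte markers fell in the tumors, as did 13.7% of all genes (limma, by the rule for all genes given below).

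Genes of the cluster are so alike that their sequences set how well the reads could tell them apart. The coding sequences of *Stfa1* and *BC100530* had 288 of 294 bases in common (97.96%), and those of *Stfa2* and *Stfa2l1* had 306 of 312 (98.08%). Between the other pairs among the 5 members with an annotated coding sequence, identity was 73.4% to 82.05%. Against *Cstb*, the stefin B gene on chromosome 10, it was 52.2% to 58.72%. Below are the codons of the first binding loop, the stretch in which glutamine, any residue, valine, any residue and glycine follow one another. They are shown because this loop enters the protease active site and because its bases can be compared between the near-identical copies. Capitals mark the 5 codons of the loop, with 15 bases on each side, read from the coding transcripts of GENCODE vM1 on mm9.
Stfa1: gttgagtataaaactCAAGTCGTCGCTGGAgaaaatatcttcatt
BC100530: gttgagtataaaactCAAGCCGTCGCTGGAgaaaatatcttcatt
Stfa2: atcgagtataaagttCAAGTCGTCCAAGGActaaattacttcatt
Stfa2l1: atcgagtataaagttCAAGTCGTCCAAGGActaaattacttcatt
Stfa3: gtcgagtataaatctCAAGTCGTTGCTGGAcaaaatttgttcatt
Csta: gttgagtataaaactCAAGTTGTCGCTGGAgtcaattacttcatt
Gm5416: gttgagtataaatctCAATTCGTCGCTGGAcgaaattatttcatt
Gm5483: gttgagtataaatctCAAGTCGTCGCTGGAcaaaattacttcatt
Cstb: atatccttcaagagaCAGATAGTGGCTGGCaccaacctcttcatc
*Stfa2* and *Stfa2l1* had the same bases over this stretch, so it cannot separate them. *Stfa1* and *BC100530* differed in it by T140C, with the base of *Stfa1* first and positions counted from 1 at the start codon. Their other 5 differences were T9C, T53A, A61G, T269A and A276T. *Stfa2l1* differed from *Stfa2* by C66T, C92T, A190G, C207T, C222T and T252C.

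The reads were 76 bases at each end of a fragment, and htseq-count leaves out reads that map to more than 1 place. Of the 76-base windows of the annotated coding transcripts, 80.5% of those of *Stfa1* occurred nowhere else in mm9 or in a transcript of another gene. The share was 80.8% for *BC100530*, 94.96% for *Stfa2*, 92.6% for *Stfa2l1* and 100% for *Stfa3*. *Stfa1* and *BC100530* shared 56 windows, and *Stfa2* and *Stfa2l1* shared 25. *BC100530* shared another 63 windows with *Gm1975*, and its exons overlap those of the antisense gene *Gm15845*, from which reads cannot be told apart in libraries that do not mark strand. Values of these 4 near-copies are therefore uncertain to the extent that reads were left out or placed on the other copy, and that extent was not tested. *BC117090* had no entry of that symbol in the annotation, so its similarity and length are not given.

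On mm9, the cluster ran over 335.447 kb, from chr16:36120032 to 36455478, with 12 annotated coding genes, of which 8 had values. In order along the chromosome these were *Csta* (chr16:36120032-36131327), *Stfa2l1* (chr16:36156897-36162034), *Gm5483* (chr16:36184298-36188197), *Gm5416* (chr16:36210489-36217874), *Stfa1* (chr16:36277213-36285457), *BC100530* (chr16:36359468-36367834), *Stfa2* (chr16:36404037-36421006) and *Stfa3* (chr16:36450623-36455478). *Csta*, *BC100530*, *Stfa2* and *Stfa3* lie on the minus strand and the others on the plus strand.

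Promoter sequences from RefSeq (GRCm38.p6) were at hand for 4 of the 6 members, *Stfa1*, *Stfa2*, *Stfa3* and *Stfa2l1*. They are printed because the genes share a cluster and the sequences carry the same runs of letters at nearly the same place. Each line gives the 250 bases before the annotated start, and capitals mark the runs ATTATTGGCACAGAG and ACCTTTAAAACCC. The windows are chr16:36276898-36277147 (plus strand) for *Stfa1*, chr16:36408364-36408613 (minus) for *Stfa2*, chr16:36455393-36455642 (minus) for *Stfa3* and chr16:36156561-36156810 (plus) for *Stfa2l1*, in GRCm38.p6 positions.
Stfa1: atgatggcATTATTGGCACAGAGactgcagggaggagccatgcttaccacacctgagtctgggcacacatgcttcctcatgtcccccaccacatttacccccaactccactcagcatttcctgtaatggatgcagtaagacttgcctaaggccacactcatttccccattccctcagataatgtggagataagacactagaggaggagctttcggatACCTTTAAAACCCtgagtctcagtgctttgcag
Stfa2: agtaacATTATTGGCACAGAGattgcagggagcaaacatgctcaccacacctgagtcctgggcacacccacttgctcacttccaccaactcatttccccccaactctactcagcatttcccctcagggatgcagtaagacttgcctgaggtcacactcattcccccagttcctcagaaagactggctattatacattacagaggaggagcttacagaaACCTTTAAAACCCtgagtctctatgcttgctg
Stfa3: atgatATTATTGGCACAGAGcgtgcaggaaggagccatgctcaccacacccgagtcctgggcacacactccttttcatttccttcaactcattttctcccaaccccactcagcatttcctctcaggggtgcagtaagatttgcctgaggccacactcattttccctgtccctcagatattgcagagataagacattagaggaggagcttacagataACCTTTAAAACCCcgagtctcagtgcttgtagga
Stfa2l1: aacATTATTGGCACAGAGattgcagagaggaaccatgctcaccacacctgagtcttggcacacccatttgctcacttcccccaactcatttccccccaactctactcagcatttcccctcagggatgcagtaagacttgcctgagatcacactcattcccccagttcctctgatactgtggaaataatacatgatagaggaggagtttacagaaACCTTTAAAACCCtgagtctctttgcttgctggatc
The run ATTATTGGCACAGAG, the longest run shared by the 4, began 242 to 247 bases before the start and was found in 5 of 32851 promoter windows (0.0152%, both strands). Those windows include the 4 from which the run was taken. ACCTTTAAAACCC began 32 to 36 bases before the start in these 4 genes, was shared with *Gm5416* and *Gm5483*, and was found in 9 windows (0.0274%). Here too the windows include the 6 from which the run was taken. Each low share is thus largely set by how the run was found, and nothing is read from it. Among known motifs searched on both strands from 250 bases before to 50 after the start, TGANTCA (AP-1, held by 7.81% of all windows) matched *Stfa3* alone among the 4. That match lay at offset 29 after the start, outside the bases printed above. TTGCNNAA (C/EBP, 10.8% of windows) matched *Stfa1* alone among the 4. TGACGTCA (CRE, 1.79%), GAGGAAGT (PU.1, 3.20%) and the core promoter element TATAAA (13.6%) had no match in the 4 windows. Such matches describe letters only.

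All 6 members were low in the normal glands and well above the floor in the tumors. *BC100530* was above the floor in every gland, with 7 to 13 fragments, and each other member had at least 1 gland at or under it. In each member the 3 tumors lay above the 3 glands, as they did in 27.6% of all genes. Nothing is read from that count because the members were chosen on this contrast. *BC100530*, a near-copy of *Stfa1*, had 2.64, 1.16 and 1.09 CPM in glands M11035, M11640 and M9232 and 497, 761 and 743 CPM in tumors T11035, T11640 and T9232. Its lowest tumor was 188 times its highest gland. It is the most abundant member, with 667 ± 147 CPM (SD, n = 3) in the tumors and 1.63 ± 0.877 CPM in the glands. *Stfa1*, which encodes a stefin A, had 0.407, 0 and 0.821 CPM in the same glands and 25.1, 21.2 and 14.7 CPM in the same tumors. A count of 0 in gland M11640 allows up to 0.496 CPM. Unlike *BC100530*, *Stfa1* was highest in tumor T11035.

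*Stfa3* was the most even of the members. This gene had 1.02, 0 and 0.821 CPM in glands M11035, M11640 and M9232 and 265, 289 and 294 CPM in the tumors of the same mice. Its tumor mean was 283 ± 15.8 CPM (SD, n = 3), and the coefficient of variation over the tumors was 5.59%, against 16.5% to 65.0% for the other members. The lowest tumor was 260 times the highest gland.

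*Stfa2* had 0.407, 0 and 0.410 CPM in the glands and 46.9, 66.8 and 87.1 CPM in the tumors, in the same order of mice. All 3 glands were at or under the floor. Its near-copy *Stfa2l1* was the least abundant member, with 0.610, 0.165 and 0.274 CPM in the glands and 5.95, 2.36 and 10.5 CPM in the tumors. The groups of *Stfa2l1* came closest to each other, with the lowest tumor at 3.87 times the highest gland. *BC117090*, a stefin A family transcript by the grouping used here, had no fragment in glands M11035 and M11640 and 2 fragments (0.274 CPM) in gland M9232. In the tumors it had 33.9, 47.2 and 43.0 CPM.

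**Figure D1:**
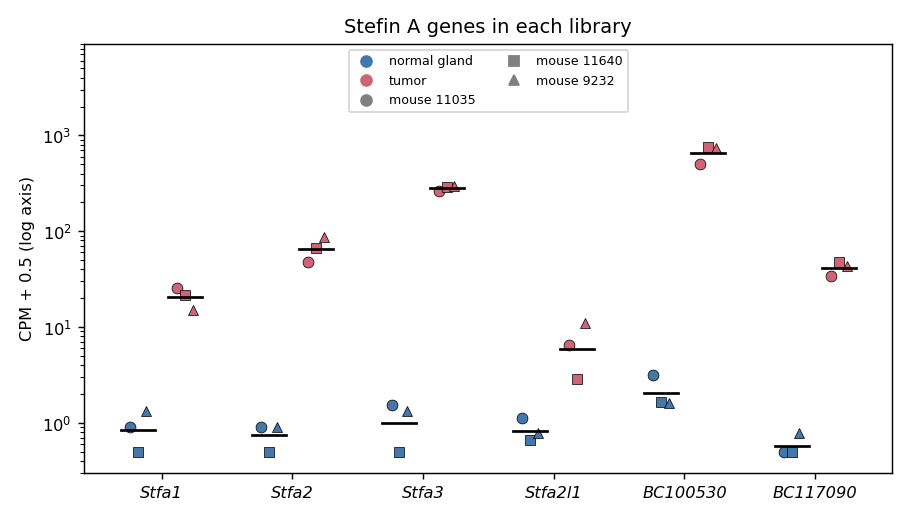
CPM + 0.5 on a log axis for the 6 stefin A genes in each library, with normal glands in blue, tumors in red, a marker shape for each mouse and a bar at the mean of the log values. Glands lie between 0 and 2.64 CPM and tumors between 2.36 and 761 CPM before the 0.5 was added, and in each gene the lowest tumor lies above the highest gland.

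Because the glands held so few fragments, ratios rest on small counts. Pooled over the glands, the members had 28 (*BC100530*), 11 (*Stfa3*), 8 (*Stfa1*), 6 (*Stfa2l1*), 5 (*Stfa2*) and 2 (*BC117090*) fragments. The ratio of pooled CPM, tumor over gland, with its exact 95% interval, was 472 (264 to 946) for *Stfa3*, 446 (308 to 671) for *BC100530* and 385 (106 to 3185) for *BC117090*. It was 249.6 (107 to 770) for *Stfa2*, 45.9 (23.1 to 107) for *Stfa1* and 18.6 (8.29 to 51.6) for *Stfa2l1*. These intervals cover counting error only. They treat pooled fragments as independent molecules, which PCR copies are not, and leave out the spread between mice. The interval of *Stfa1* lay below those of *BC100530* and *Stfa3*, and that of *Stfa2l1* lay below those of *Stfa2*, *Stfa3*, *BC100530* and *BC117090*. This describes the pooled counts, and whether the ratios differ between members was not tested.

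On the log2(CPM + 0.5) scale, which understates differences of genes near 0, the difference of tumor minus gland was 8.34 (SE 0.29) for *BC100530*, 8.14 (SE 0.38) for *Stfa3* and 6.46 (SE 0.33) for *Stfa2*. The differences were 6.16 (SE 0.28) for *BC117090*, 4.60 (SE 0.40) for *Stfa1* and 2.82 (SE 0.50) for *Stfa2l1*. Without gland M9232 they were 8.17, 8.34, 6.60, 6.37, 4.92 and 2.77 in the order *BC100530*, *Stfa3*, *Stfa2*, *BC117090*, *Stfa1* and *Stfa2l1*. Within each mouse all were above 0, from 2.10 for *Stfa2l1* to 9.18 for *Stfa3*, both in the mouse of T11640. By the rule used for all genes, a DEG had an FDR of at most 0.05 and at least a 2-fold difference in limma's moderated test. That rule called 14.5% of all genes higher and 13.7% lower in tumors, and the 6 members are among the former because they were chosen on this contrast.

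**Figure D2:**
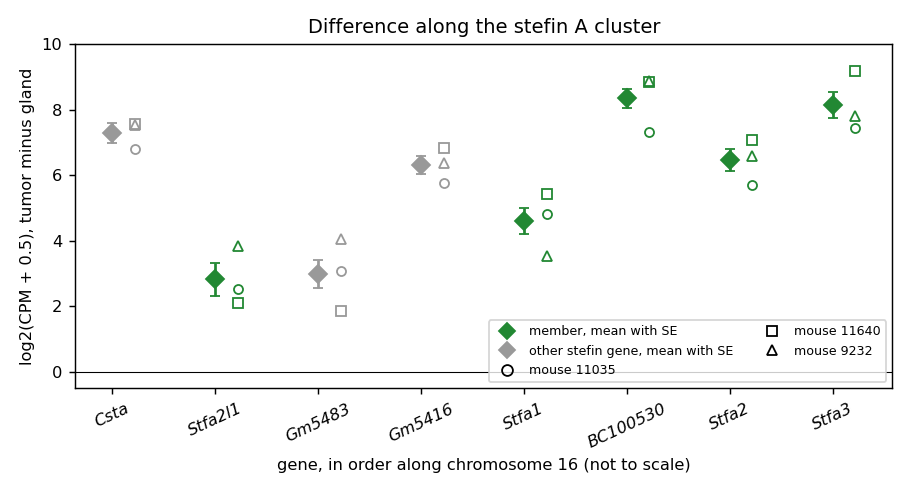
Difference in log2(CPM + 0.5), tumor minus gland, for the 8 cluster genes with a value and a position, in chromosomal order. Diamonds are the mean with its SE, open symbols are the 3 mice, green marks the chosen genes and grey the others, and values run from 2.82 (*Stfa2l1*) to 8.34 (*BC100530*).

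Together the members made up 1.32 to 5.08 CPM in the glands and 874, 1187 and 1193 CPM in tumors T11035, T11640 and T9232. In the tumors this was 0.0918%, 0.116% and 0.115% of the library. Of the member fragments, *BC100530* took 56.9%, 64.1% and 62.3% in these tumors, and *Stfa3* took 30.3%, 24.3% and 24.7%. *Stfa2* took 5.37% to 7.30%, *BC117090* 3.61% to 3.98%, *Stfa1* 1.23% to 2.87% and *Stfa2l1* 0.199% to 0.879%. Both leading genes thus held most of the member fragments in every tumor. These shares leave out *Csta*, *Gm5416* and *Gm5483* of the same cluster. With these genes added, the sums were 1044, 1498 and 1514 CPM in tumors T11035, T11640 and T9232.

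Compared per length, both leading genes overlapped. *BC100530* had 844 ± 186 CPM per kb of annotated exon (SD, n = 3) in the tumors, with a range of 630 to 963, and *Stfa3* had 686 ± 38.3, with a range of 642 to 714. The next member on this scale, *Stfa2*, had 108 ± 32.3 CPM per kb, and its highest tumor lay below the lowest tumor of *Stfa3*. *Stfa1* followed with 46.3 ± 12.0 CPM per kb and *Stfa2l1* with 15.1 ± 9.84. Each of these steps down was free of overlap, since *Stfa2* started at 75.4, *Stfa1* covered 33.5 to 57.2 and *Stfa2l1* covered 5.70 to 25.3. Lengths were taken from GENCODE vM1, whereas the authors counted on RefSeq genes, so a level per kb depends on exon models that may differ. The exons of *BC100530* covered 790 bases (8 exons) and those of *Stfa2* 622 bases (5 exons), each from 2 coding transcripts. *Stfa1*, *Stfa3* and *Stfa2l1*, with 3 exons each, covered 412 to 439 bases. A shorter model would raise a level per kb, so the overlap and the order above hold for these lengths only.

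The share of the rarer gene in each pair of near-copies was compared over the tumors. *Stfa1* gave 4.81% of the fragments of *Stfa1* and *BC100530* in tumor T11035 (95% Wilson interval 4.08% to 5.66%), 2.72% in T11640 (2.33% to 3.16%) and 1.94% in T9232 (1.59% to 2.36%). The share was thus highest in T11035. *Stfa2l1* gave 11.3% (8.10% to 15.5%), 3.41% (2.17% to 5.32%) and 10.8% (8.60% to 13.4%) of the fragments of *Stfa2l1* and *Stfa2* in the same tumors. Here the share was lowest in T11640. These intervals cover counting error only and treat fragments as independent molecules, and each tumor is a single library of another mouse, so whether a pair's ratio differs between tumors was not tested. In the glands the pairs had at most 15 fragments, too few for such a comparison.

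**Figure D3:**
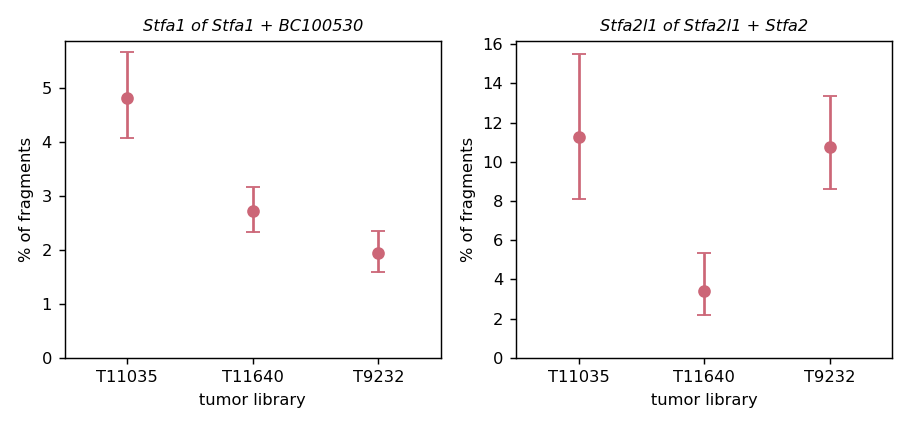
Share of *Stfa1* among the fragments of *Stfa1* and *BC100530* (left) and of *Stfa2l1* among those of *Stfa2l1* and *Stfa2* (right), in percent, for each tumor library with its 95% Wilson interval. The left share runs from 1.94% to 4.81% and the right share from 3.41% to 11.3%, with T11640 lowest on the right.

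The members fell into different orders over the 3 tumors. *BC100530*, *BC117090*, *Stfa3* and *Stfa2* were lowest in T11035, with the highest tumor 1.53, 1.39, 1.11 and 1.86 times the lowest. *Stfa1* ran the other way, highest in T11035 and lowest in T9232 (1.71 times). *Stfa2l1* was lowest in T11640 and highest in T9232, a 4.45-fold range, and the neighbor *Gm5483* had the same order with a 3.36-fold range. In these tumors the summed squamous keratinocyte markers were 4510, 7735 and 7195 CPM, the neutrophil markers 1455, 1725 and 2228 CPM and the macrophage markers 1245, 2484 and 2436 CPM. All of these sums were also lowest in T11035. So were the sums of the other cystatin lists and of the cathepsin lists described below, such as 2279, 4129 and 4292 CPM for the cysteine cathepsins. The mammary epithelial and adipocyte sums were lowest in T9232. A low value in T11035 was thus not particular to the squamous, neutrophil and macrophage markers. With 3 tumors no relation between a member and a marker sum could be tested.

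**Figure D4:**
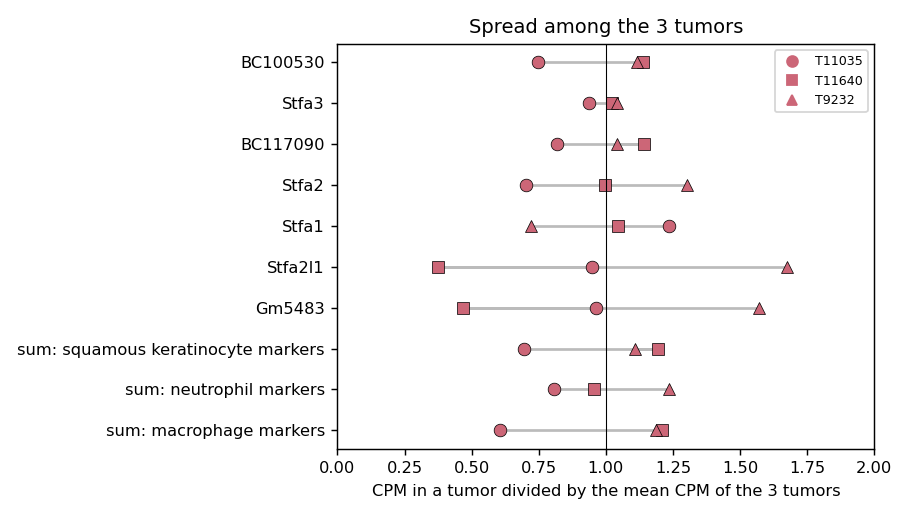
CPM of each tumor divided by the mean CPM of the 3 tumors for the 6 stefin A genes, *Gm5483* and 3 marker sums, with a marker shape for each tumor. *Stfa3* stays within 0.936 to 1.04 of its mean, while *Stfa2l1* runs from 0.376 in T11640 to 1.67 in T9232.

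The other type 1 cystatins were tested, since they were no members, although their list was drawn up with earlier results of these data known. The list held 9 symbols, some of them older and newer names of the same gene (*Csta* and *Csta1*, *Gm5416* and *Csta3*, *2010005H15Rik* and *Csta2*). The 4 genes with values all rose in the tumors, as did 14.5% of all genes (median difference 4.66 in log2, against -0.00 over all genes). *Csta*, at the other end of the cluster, had 0.610, 0.826 and 0.958 CPM in the glands and 123, 251 and 266 CPM in the tumors. It differed by 7.29 (SE 0.31, adjusted p = 1.67e-06, limma), with no overlap. *Gm5416* had 1 fragment in all glands together and 38.0, 56.0 and 40.8 CPM in the tumors, a difference of 6.32 (adjusted p = 1.81e-06, limma). *Gm5483* rose from 0.615 to 9.26 CPM on average, by 3.00 (SE 0.43, adjusted p = 7.27e-04, limma). *Gm5483* shared 73 of its 76-base windows with *2010005H15Rik*, so its values carry the same uncertainty as those of the near-copies.

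*Cstb*, which encodes the widely expressed stefin B and lies outside the cluster, differed from the stefin A genes in its gland level. It had 16.9, 27.7 and 43.9 CPM in the glands and 95.6, 165 and 166 CPM in the tumors. All tumors were above all glands, and the rise was 2.31 in log2 (SE 0.35, adjusted p = 9.97e-04, limma). Per kb of exon, *Cstb* had 49.3 ± 22.7 CPM in the glands (SD, n = 3), where *BC100530* had 2.06 ± 1.11 and the other 4 members with a length between 0.438 and 1.49. In the tumors *Cstb* had 237 ± 67.3 CPM per kb, below the range of *BC100530* and *Stfa3* and above that of *Stfa2*, with the exon lengths used here.

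Secreted relatives of the cystatin superfamily moved in both directions. Of 15 listed genes, 5 had values, of which 2 rose and 1 fell, beside 14.5% of all genes higher and 13.7% lower. With so few genes nothing is read from these counts. *Cst6*, the cystatin M/E of skin, rose from 0.477 to 22.3 CPM (log2 difference 4.43, adjusted p = 4.10e-04, limma), and *Fetub*, a fetuin of the cystatin superfamily, rose from 0.236 to 8.94 CPM (3.64, adjusted p = 1.03e-04, limma). *Cst7*, cystatin F of leukocytes, fell from 8.73 to 2.40 CPM (-1.65, adjusted p = 0.00329, limma). *Cst3*, the ubiquitous cystatin C, was at 175 CPM in the glands and 178 CPM in the tumors (adjusted p = 0.995, limma), and *Kng2*, a kininogen, had a difference of -0.39 (adjusted p = 0.543, limma). The list's median was -0.00.

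The cysteine cathepsins are the proteases that stefins bind. Of 10 listed genes, all with values, 2 rose, 2 fell and 6 did not pass the test, with a median log2 difference of 0.25. By the same rule 14.5% of all genes rose and 13.7% fell. Counts this small are not read as a result about the list. *Ctsk*, best known as the collagenase of osteoclasts, rose from 26.9 to 123 CPM (2.34, SE 0.46, adjusted p = 0.00401, limma), with glands at 11.8 to 48.1 and tumors at 91.9 to 175 CPM. *Ctsc*, the dipeptidyl peptidase that activates granule serine proteases, rose from 103 to 255 CPM (1.33, SE 0.21, adjusted p = 0.00136, limma). *Ctso* fell from 160 to 60.0 CPM (-1.39, adjusted p = 0.00105, limma), and *Ctsw*, a cathepsin of cytotoxic lymphocytes, fell from 6.65 to 0.990 CPM (-2.13, adjusted p = 0.00528, limma).

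The abundant lysosomal cathepsins were among those that did not pass. *Ctsb* was at 609, 1119 and 1290 CPM in the glands and at 545, 984 and 1025 CPM in the tumors, which overlapped (adjusted p = 0.612, limma). *Ctsl* averaged 664 CPM in the glands and 1136 CPM in the tumors (log2 difference 0.74, adjusted p = 0.204, limma) and *Ctss* 719 and 990 CPM (0.64, adjusted p = 0.275, limma). *Ctsl* passed without tumor T11035 (1.21, adjusted p = 0.0350, limma) and *Ctss* passed without gland M9232 (1.14, adjusted p = 0.0228, limma). *Ctsf*, *Ctsh* and *Ctsz* had differences of 0.77, -0.14 and -0.13 (adjusted p = 0.0648, 0.681 and 0.643, limma). Of 4 aspartic and serine cathepsins, which stefins do not inhibit, *Ctse* (-2.09) and *Napsa* (-1.83) fell and *Ctsd* (-0.49) and *Ctsa* (0.47) did not pass. The share of all genes that fell was 13.7%.

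**Figure D5:**
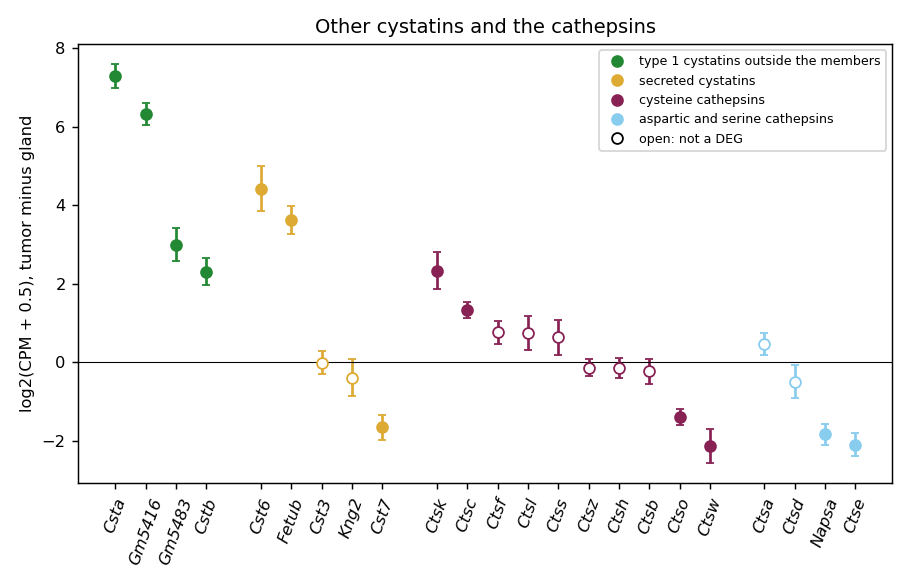
Difference in log2(CPM + 0.5), tumor minus gland, with its SE, for the cystatins that are no members and for the cathepsins, where filled symbols passed the DEG rule and open symbols did not. The 4 type 1 cystatins lie between 2.31 and 7.29, and the 10 cysteine cathepsins lie between -2.13 and 2.34.

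Markers of both cell types known for stefin A differed between tumors and glands too. Of 17 squamous keratinocyte markers with values, all 17 rose, where 14.5% of all genes did. Their sum was 44.5 to 45.4 CPM in the glands and 4510 to 7735 CPM in the tumors. The largest difference was that of *Krt6b*, a keratin of activated keratinocytes (9.52), and the smallest that of *Tgm1*, the transglutaminase that cross-links the cornified envelope (3.06). *Krt10*, the keratin of suprabasal cells, averaged 5.10 CPM in the glands and 997 CPM in the tumors, and *Dsc1*, a desmosomal cadherin of the upper epidermis, 1.04 and 903 CPM. *Lor*, which encodes loricrin of the cornified envelope, was at 0 in every gland. The part of these cells in the stefin A values was not tested.

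Neutrophil markers split. Of 19 with values, 12 rose, 4 fell and 3 did not pass, where 14.5% of all genes rose and 13.7% fell. Their sum was 428 to 1270 CPM in the glands and 1455 to 2228 CPM in the tumors. The highest gland was the milk-rich M9232, where *Lcn2* (593 CPM) and *Ltf* (500.1 CPM) made up most of the sum, and the other glands had 428 and 523 CPM. In each tumor, *S100a9*, *Il1b* and *S100a8* made up most of the sum. In T11035, T11640 and T9232, *S100a9* had 468, 692 and 888 CPM. *Il1b* had 250, 296 and 376 CPM there, and *S100a8* had 183, 182 and 226 CPM. The tumor sums thus speak mainly for these genes and not for the list as a whole. *Il1b*, an inflammatory cytokine, had the largest difference (5.24, from 7.70 to 308 CPM), and *S100a9*, a calprotectin subunit that keratinocytes also make, rose from 40.4 to 683 CPM. *Ltf*, which encodes the granule and milk protein lactoferrin, had the lowest value (-2.97, from 250.3 to 27.3 CPM). The call of *Lcn2*, another secreted granule and epithelial protein that fell (-1.79, adjusted p = 0.0474, limma), was lost with the mouse as a block (adjusted p = 0.0719, limma). It was also lost without gland M11640, gland M9232, tumor T11035, tumor T11640 or tumor T9232 (adjusted p of 0.0537 to 0.168, limma). Receptor genes were among the markers that rose. *Csf3r*, the receptor of G-CSF, averaged 14.6 CPM in the glands and 78.7 CPM in the tumors, *Cxcr2*, a chemokine receptor, 38.6 and 124 CPM, and *Trem1*, an activating receptor of myeloid cells, 0.214 and 14.8 CPM. The granule genes *Mpo* and *Ngp* were among those that fell, with *Mpo* at 3.07 CPM in the glands and 0.286 CPM in the tumors and *Ngp* at 10.6 and 0.859 CPM. The 3 that did not pass were *Retnlg* (-0.78), *Cd177* (-0.82) and *Camp* (-1.07), with adjusted p of 0.204, 0.208 and 0.131 (limma). *Csf3r*, *Cxcr2*, *Trem1*, *Mpo* and *Ngp* were named after their values were seen, so no pattern is read from them. Whether the markers split by neutrophil maturity was not tested. *Ly6g*, *Elane*, *Fcnb*, *Padi4* and *Prtn3* had no value in the table used here. The call of *Mpo* was lost without gland M11035, tumor T11640 or tumor T9232, and that of *Mmp8*, a neutrophil collagenase that rose, without gland M11640, tumor T11640 or tumor T9232 (adjusted p of 0.0619 to 0.0884 and of 0.0704 to 0.0805, limma). Macrophage markers had overlapping sums (1130 to 4031 CPM in glands, 1245 to 2484 CPM in tumors), with 1 of 12 higher (*Fcgr1*, 2.88) and 1 lower (*Cd163*, -2.28). The call of *Cd163* was lost without gland M11640, gland M9232, tumor T11035 or tumor T11640 (adjusted p of 0.0597 to 0.110, limma). The part of myeloid cells in the stefin A values was not tested.

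Mammary epithelial markers were mixed, with 6 of 12 higher and 5 lower, where 14.5% of all genes were higher and 13.7% lower. *Krt5* and *Krt14*, keratins of basal cells, averaged 24.6 and 11.5 CPM in the glands and 986 and 585 CPM in the tumors. The milk genes *Csn1s1*, *Csn2*, *Csn3*, *Wap* and *Lalba* were the 5 that fell. Without tumor T11640 or tumor T9232, *Csn1s1* (adjusted p = 0.0538 and 0.0845, limma) and *Wap* (adjusted p = 0.103 and 0.113, limma) were not called, and *Wap* was not called without tumor T11035 either (adjusted p = 0.0918, limma). Among those that rose, *Krt18* was not called without tumor T9232 (log2 difference 0.91) and *Krt19* was not called without gland M11035 (0.99), both under the 2-fold limit. *Epcam*, a marker of all epithelial cells, averaged 151 and 211 CPM and did not pass (adjusted p = 0.124, limma).

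The genes whose profile lay nearest to each member over the 6 libraries were found by the root mean square difference of log2(CPM + 0.5), each gene centered on its mean, among the 14712 genes that averaged 1 CPM or more, which include all 6 members. This likeness describes the same contrast on which the members were chosen. *BC100530* was nearest to *Abca12*, a lipid transporter of the epidermal barrier (0.16), then *3830417A13Rik* (0.18) and the calmodulin-like *Calm4* (0.23). *Stfa3* was nearest to the desmogleins *Dsg1a* (0.34) and *Dsg3* (0.35) and to *Krt16* (0.37). *BC117090* was nearest to *Pglyrp4*, a peptidoglycan recognition protein (0.17), *Uox*, the urate oxidase gene (0.22), and *Il1f5*, a member of the interleukin 1 family (0.24).

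For *Stfa2* the nearest genes were *Fam25c* (0.24), *Dkk1*, a secreted Wnt antagonist (0.24), and *Gsdma*, a gasdermin of skin (0.26). *Stfa1* was nearest to *Nr1h5* (0.25), *9930013L23Rik* (0.26) and *Car12*, a carbonic anhydrase (0.33). *Stfa2l1* was nearest to *Hdc*, the histamine-forming enzyme of mast cells and neutrophils (0.24), to the coagulation factor gene *F10* (0.28) and to its chromosomal neighbor *Gm5483* (0.33). *Hdc* had 19.4, 11.1 and 28.3 CPM in tumors T11035, T11640 and T9232, the order of *Stfa2l1*. Since *Hdc* was picked by likeness over these same libraries, that order is no separate support. Among the members themselves, the nearest to *Stfa1* and to *Stfa2* was *BC117090* (0.89 and 0.34), *Stfa3* and *BC100530* were nearest to each other (0.46), and the nearest to *Stfa2l1* was *Stfa1* (1.20).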

How the data were processed

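RNA-Seq was done on 3 tumors and the 3 matched glands, and each library was placed in its group by the tissue type in its label. The authors mapped 76-base read pairs to mm9 with TopHat2 2.0.3 and enumerated fragments per RefSeq gene with HTSeq 0.5.3p9. They removed genes with fewer than 10 fragments and deposited a normalized signal in CPM on edgeR 3.6.1 effective library sizes (CASAVA 1.8.2 is also in the submitters' processing notes). Dividing by the CPM of 1 fragment gave whole numbers for 100% of values (relative tolerance 0.001), so fragments were recovered.

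The unit was recorded as a signal because the columns do not sum to 1 total. Tumors were compared with glands on the log2(CPM + 0.5) scale by the two-sided moderated test of limma 3.58.1 (R 4.3.3, trended variance), adjusted by the Benjamini-Hochberg method over 15280 genes. Scripts were tested on simulated data. The count tests of edgeR 4.0.16 and DESeq2 1.42.0 on the fragments called 2238 and 2240 genes higher and 2224 and 2196 lower, against 2212 and 2097 with limma. Each p-value rests on the spread between libraries within tumors and within glands, moderated over all genes, and covers these 3 mice only. A tumor and a gland of the same mouse were treated as independent. The authors' DEG rule also had a gene length minimum, which was not applied here.

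Each mouse gave both a tumor and a gland, and its number therefore pairs them. Over 14712 genes, deviations of the 2 libraries of a mouse from their group means correlated with r = 0.107, 0.151 and 0.0168 (the mice of T11035, T11640 and T9232). The reported fit has no block because the study's methods state none.

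The members and the gene lists were chosen with earlier results of these data known. The genes named are the members, the listed cystatins and cysteine cathepsins, and the 3 genes nearest to each member. From the other lists, genes were named that had the highest or lowest difference or were among the 4 most abundant. Not all such genes are named, and abundant ones left out include the macrophage markers *Lyz2* and *Mrc1* and all adipocyte markers. Outside that rule, *Wap*, *Lalba*, *Epcam*, *Krt18*, *Krt19*, *S100a8*, *Csf3r*, *Cxcr2*, *Trem1*, *Mmp8*, *Mpo*, *Ngp*, *Retnlg*, *Cd177*, *Camp*, *Ly6g*, *Elane*, *Fcnb*, *Padi4*, *Prtn3*, *Lor*, *Cd14* and *C1qa* were named after their values were seen. Positions and exon lengths are from GENCODE vM1 (mm9) and promoters from RefSeq (GRCm38.p6), with sequences handled in Biopython 1.88.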

Additional observations from a re-analysis of the deposited data

How the results depend on the processing

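The member differences rest on glands with 0 to 13 fragments per gene, so their size followed the offset. Over 14 alternatives they ranged from 8.01 to 8.75 (*BC100530*), 7.52 to 9.24 (*Stfa3*), 5.71 to 7.94 (*Stfa2*), 5.28 to 8.58 (*BC117090*), 3.93 to 5.79 (*Stfa1*) and 2.27 to 4.23 (*Stfa2l1*) in log2, and none changed sign. With a pseudocount of 0.1, *Stfa1*, *Stfa2*, *Stfa3*, *Stfa2l1* and *BC117090* were at 5.79, 7.78, 9.24, 3.71 and 8.05. With a pseudocount of 1, *Stfa1*, *Stfa2*, *Stfa3* and *BC117090* were at 3.93, 5.71, 7.52 and 5.28. For *Stfa1*, *Stfa2*, *Stfa3*, *Stfa2l1* and *BC117090*, edgeR on the fragments gave 5.49, 7.84, 8.83, 4.15 and 8.33, and DESeq2 gave 5.57, 7.94, 8.88, 4.23 and 8.58.

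With the mouse as a replicate block, 2205 genes were called higher and 2093 lower in tumors, and among the listed genes that pairing changed the call of *Lcn2* alone. Without the mean-variance trend, the 1 macrophage marker called lower, *Cd163*, was lost (0 called), as were *Lcn2* and *Wap* (adjusted p = 0.0809 and 0.0662, limma), and *Wap* was also lost with a pseudocount of 1 (adjusted p = 0.0628, limma). When each library was left out in turn, macrophage markers had 1 to 2 higher and 0 to 1 lower, neutrophil markers 11 to 12 higher and 2 to 3 lower, and mammary epithelial markers 5 to 6 higher and 3 to 5 lower. The lowest counts of the latter lists came without tumor T11640 or T9232, where *Mpo*, *Lcn2*, *Csn1s1* and *Wap* were not called (*Mpo* adjusted p = 0.0884 and 0.0619, *Lcn2* 0.112 and 0.168, *Csn1s1* 0.0538 and 0.0845, *Wap* 0.103 and 0.113, limma). *Cd163* was lost without gland M11640, gland M9232, tumor T11035 or tumor T11640, and *Cd14* without gland M9232 and *C1qa* without tumor T11035 were gained. The type 1 cystatin calls (4 higher) were the same in all 14 alternatives.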
